A study of Mus musculus with 105 samples.

Results

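Keratins are the intermediate filament proteins of epithelial cells, and 49 protein-coding keratin genes were followed through every library of a mouse RNA sequencing series. The members are the rows of the raw count table whose GENCODE gene symbol is Krt followed by digits alone and whose gene type is protein coding, 49 of 53379 gene rows. Type was set here from the chromosome: members on chromosome 15 other than Krt18 were taken as type II and the rest as type I. This gave 26 type I and 23 type II genes, so the match of type to chromosome is not a finding. Of the type I genes, 25 lie on chromosome 11 and 1, Krt18, lies on chromosome 15 beside the 23 type II genes. Without Krt222 and Krt18, the 2 gene clusters span chromosome 11 from 99279959 to 100269871 with 24 members and chromosome 15 from 101347444 to 102004482 with 23 members (mm10). The rule leaves out 6 rows with keratin names: Krt6a, Krt6b, Krt33a and Krt33b, which are protein coding but carry a letter, and the pseudogenes Krt74 and Krt8-ps.

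A keratin filament is built from pairs of 1 type I and 1 type II protein, so epithelial cells usually express the types in partnership. Simple epithelia use mainly Krt8 with Krt18, and the basal layer of stratified epithelia uses Krt5 with Krt14. Cells leaving the basal layer switch to Krt1 with Krt10 in the epidermis or Krt4 with Krt13 in mucosa, and hair follicles have keratin sets of their own for the hair shaft and the inner root sheath. Desmosomes and hemidesmosomes anchor these filaments at the cell surface.

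All mice and lines are of C57BL/6 origin. The tumour lines comprise libraries labelled Setdb1KO, for a knockout (KO) of the histone methyltransferase gene Setdb1, control libraries labelled Ctrl and libraries labelled WT, all grown with puromycin. The labels do not say how the knockout was made or whether a line is 1 clone. The lines are B16 and B16OVA (melanoma; 3 and 6 libraries in each of the 3 groups), MCA101OVA (from the fibrosarcoma MCA101; 3 in each) and MC38 (colon adenocarcinoma; 3 in each); the labels do not explain OVA. Another 7 WT tumour libraries carry the name prefix B176, 1 for each of MC38-OVA, MC38-GFP, MC38, MCA101-OVA, MCA101, B16-OVA and B16. The normal samples are 5 melanocyte cultures from newborn mice, grown for 2 to 3 weeks, and 12 tissues of WT female mice with 4 libraries each: Skin, Stomach, Colon, Thymus, Lung, Kidney, Liver, Ovary, LN (the label's name, with lymphocyte genes high), Spleen, Brain and Heart. Ages of the tissue donors are not in the labels. Nor do the labels tell whether replicates are separate cultures or animals, so p-values measure the spread between these libraries, which may be technical. Depth was 53.6 to 254 (in units of 1e6 counts) per tissue library, 19.9 to 30.6 in melanocytes, 17.2 to 50.4 in the 45 tumour libraries of the KO, Ctrl and WT groups and 36.2 to 58.2 under prefix B176.

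Promoters of 6 members are shown because the results turn on these genes: Krt10 and Krt5 for stratified epithelium, Krt8 and Krt18 for simple epithelium and the tumour lines, Krt20 for the KO comparison and Krt7 for the GC boxes that nearly all other members lack. Each line runs from 250 bases before to 50 bases after the annotated start, 5′ to 3′ on the gene's strand, from RefSeq on GRCm38.p6. Capitals mark TATAAA or, in Krt7, GGGCGG, read on either strand.

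Krt10: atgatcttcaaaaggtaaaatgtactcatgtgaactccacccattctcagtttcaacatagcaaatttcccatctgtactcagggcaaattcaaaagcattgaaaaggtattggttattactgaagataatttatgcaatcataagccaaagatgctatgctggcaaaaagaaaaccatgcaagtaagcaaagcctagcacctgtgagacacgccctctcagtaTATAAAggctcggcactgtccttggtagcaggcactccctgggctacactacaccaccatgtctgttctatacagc
Krt5: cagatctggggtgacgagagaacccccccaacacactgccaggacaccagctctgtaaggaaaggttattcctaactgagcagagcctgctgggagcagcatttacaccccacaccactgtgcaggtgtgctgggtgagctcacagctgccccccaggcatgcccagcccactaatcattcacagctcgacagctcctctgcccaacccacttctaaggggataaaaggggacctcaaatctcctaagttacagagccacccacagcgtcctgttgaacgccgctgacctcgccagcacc
Krt8: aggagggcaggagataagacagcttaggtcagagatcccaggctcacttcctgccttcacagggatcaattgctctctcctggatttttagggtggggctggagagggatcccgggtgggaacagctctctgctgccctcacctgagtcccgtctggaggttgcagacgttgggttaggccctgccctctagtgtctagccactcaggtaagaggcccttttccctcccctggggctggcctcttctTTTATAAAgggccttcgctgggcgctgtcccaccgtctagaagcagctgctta
Krt18: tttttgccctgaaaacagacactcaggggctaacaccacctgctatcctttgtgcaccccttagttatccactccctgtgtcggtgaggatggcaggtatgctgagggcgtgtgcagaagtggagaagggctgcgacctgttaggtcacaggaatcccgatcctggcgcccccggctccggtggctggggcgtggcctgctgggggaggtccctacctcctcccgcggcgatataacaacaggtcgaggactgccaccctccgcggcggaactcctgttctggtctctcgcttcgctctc
Krt20: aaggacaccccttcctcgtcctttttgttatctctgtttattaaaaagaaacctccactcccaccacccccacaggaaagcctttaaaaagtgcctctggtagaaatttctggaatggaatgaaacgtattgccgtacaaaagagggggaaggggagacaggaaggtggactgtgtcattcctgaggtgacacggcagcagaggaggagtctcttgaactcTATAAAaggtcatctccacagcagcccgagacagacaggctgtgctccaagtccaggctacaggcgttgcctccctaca
Krt7: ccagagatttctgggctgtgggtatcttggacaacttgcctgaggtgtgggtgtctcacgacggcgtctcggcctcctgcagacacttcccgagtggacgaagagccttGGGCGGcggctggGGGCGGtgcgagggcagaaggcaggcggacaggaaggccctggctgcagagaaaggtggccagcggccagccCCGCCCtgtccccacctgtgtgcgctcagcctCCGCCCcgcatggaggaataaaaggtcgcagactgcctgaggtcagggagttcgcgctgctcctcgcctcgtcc

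These windows are chr11:99389315-99389614 (minus strand) for Krt10, chr15:101712856-101713155 (minus) for Krt5, chr15:102004293-102004592 (minus) for Krt8, chr15:102027966-102028265 (plus) for Krt18, chr11:99438104-99438403 (minus) for Krt20 and chr15:101412153-101412452 (plus) for Krt7. The count table lists the genes as ENSMUSG00000019761 (Krt10), ENSMUSG00000061527 (Krt5), ENSMUSG00000049382 (Krt8), ENSMUSG00000023043 (Krt18), ENSMUSG00000035775 (Krt20) and ENSMUSG00000023039 (Krt7). RefSeq gave 36 promoters for 35 of the 49 members. TATAAA, on either strand, was in the window of 18 of these 35 members, against 13.6% of all 32851 promoters of the same length. GGGCGG, on either strand, was in 2 of the 35, Krt7 with 4 matches and Krt75 with 1, against 35.7% of all promoters. A TATAAA on the gene's strand starting 35 to 25 bases before the start stood in 12 of the 36 member promoters, or 33.3%, against 1.75% of all promoters. These 12 include Krt10 (26 bases before the start), Krt20 (29 bases before), Krt12, Krt32 and the inner root sheath genes Krt25, Krt26, Krt28 and Krt73. In Krt8 the 2 matches overlap and lie 3 and 1 bases before the annotated start. Krt5 and Krt18 held neither motif in these windows. A match is a description of letters and shows no binding.

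Before the results, some libraries need naming because their keratins move with markers of other cell types. LN 3 held 139.9 CPM (counts per 1e6 library counts) of Krt19 and 82.0 CPM of Krt8, and LN 2, LN 1 and LN 4 followed in that order with 37.7, 5.32 and 1.28 CPM of Krt19. The epithelial gene Epcam ran in the same order, at 48.4 CPM in LN 3 against 16.3, 7.14 and 6.20 CPM in LN 2, LN 1 and LN 4, as did the mammary regulator Elf5 at 9.12 CPM against 2.02, 0.48 and 0.02 CPM. Ovary 4 was low in Krt19 (16.5 CPM, against 135 to 157 CPM in the other 3) and in the oviduct gene Ovgp1 (2.42 CPM, against 1480.5 to 1896 CPM). Stomach 1 held the most Krt1 and Krt10 and the highest summed level of the forestomach markers, 159.7 CPM against 44.5 to 88.2 CPM in the others. Skin 1 was high in inner root sheath keratins and in Tchh, a root sheath gene (21.8 CPM, against 8.34 to 10.1 CPM). Melanocyte 5 held Epcam at 5.33 CPM and Cldn4 at 17.8 CPM, against at most 0.05 and 0.86 CPM in the other 4 melanocyte cultures. Melanocyte 1 held fibroblast markers at a summed 13123 CPM, against 123 to 1823 CPM in the other 4, and melanocyte markers at 12419 CPM, against 45674 to 65713 CPM. What part these differences play in the keratin levels was not tested. In such bulk samples fewer cells of a type and less RNA per cell cannot be told apart.

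The MC38 label did not hold across library prefixes. The 9 libraries labelled MC38 under prefix D176 held 242 to 1009 CPM of Krt8 and 212 to 917 CPM of Krt18. The 3 libraries labelled MC38, MC38-GFP or MC38-OVA under prefix B176 held 0.07, 0.06 and 1.77 CPM of Krt8 and 0, 0.06 and 0.12 CPM of Krt18. Both MCA101 libraries under B176 held 311.9 and 631 CPM of Krt8. Over 22869 genes, the mean profile of the MC38 WT libraries under D176 had a Pearson correlation of 0.988 with the MCA101 library of B176, 0.981 with MCA101OVA WT and 0.934 with the MC38 library of B176 (log2 of CPM + 1). Dcn, a fibroblast gene, was at 47.1 to 226 CPM in the 3 MC38 libraries of B176 and at 0.06 CPM or less in the MC38 WT libraries of D176. Epcam, the intestinal regulator Cdx2 and the colon transporter gene Slc26a3 were at 0 to 0.06 CPM in all of them, so these defining markers do not check the label. The summed list of 6 epithelial markers was higher under B176, at 6.72, 6.46 and 0.998 CPM in MC38, MC38-GFP and MC38-OVA, nearly all of it Esrp1 (6.63, 6.39 and 0.873 CPM), against 0.0295 to 0.177 CPM under D176. The D176 libraries are called libraries labelled MC38 below.

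Among the tissues, Skin had by far the largest share of its counts in keratin genes. The 49 genes took 3.86% ± 0.352 of all counts in Skin (SD, n = 4), 0.932% ± 0.395 in Stomach and 0.709% ± 0.11 in Colon. Thymus followed with 0.14% and Lung with 0.0934%, and the share was lowest in Spleen with 0.00321%. A gene was counted as highest in 1 tissue where edgeR gave an adjusted p under 0.05 and a log2 fold of at least 2 over the mean of the other 11 tissues, and where that tissue had the highest mean CPM. The low-count filter passed 45 members, and each met this rule in some tissue, against 59.3% of all tested genes. A member that passed through 1 tissue where it is high had to differ, so that count says little. Krt34, Krt39, Krt40 and Krt88 did not pass the filter, and 14 members stayed under 1 mean CPM in every tissue.

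Their tissues were unevenly spread. Skin was the highest tissue of 22 members, against 5.56% of all tested genes. Stomach was highest for 5 members (1.92% of all genes), Thymus for 5 (6.67%), Brain for 5 (12.2%) and Colon for 4 (4.26%). Ovary was highest for 2 members (4.84%), Lung for Krt7 (4.46%) and Spleen for Krt86 (4%). No member was highest in Liver (4.34%), Heart (4.06%), Kidney (3.89%) or LN (3.08%). Against the next highest tissue alone, 17 of the members held their lead with an adjusted p under 0.05 and a log2 fold of at least 2. The share of all tested genes by that rule was not computed, so 17 cannot be called many or few.

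**Figure D1:**
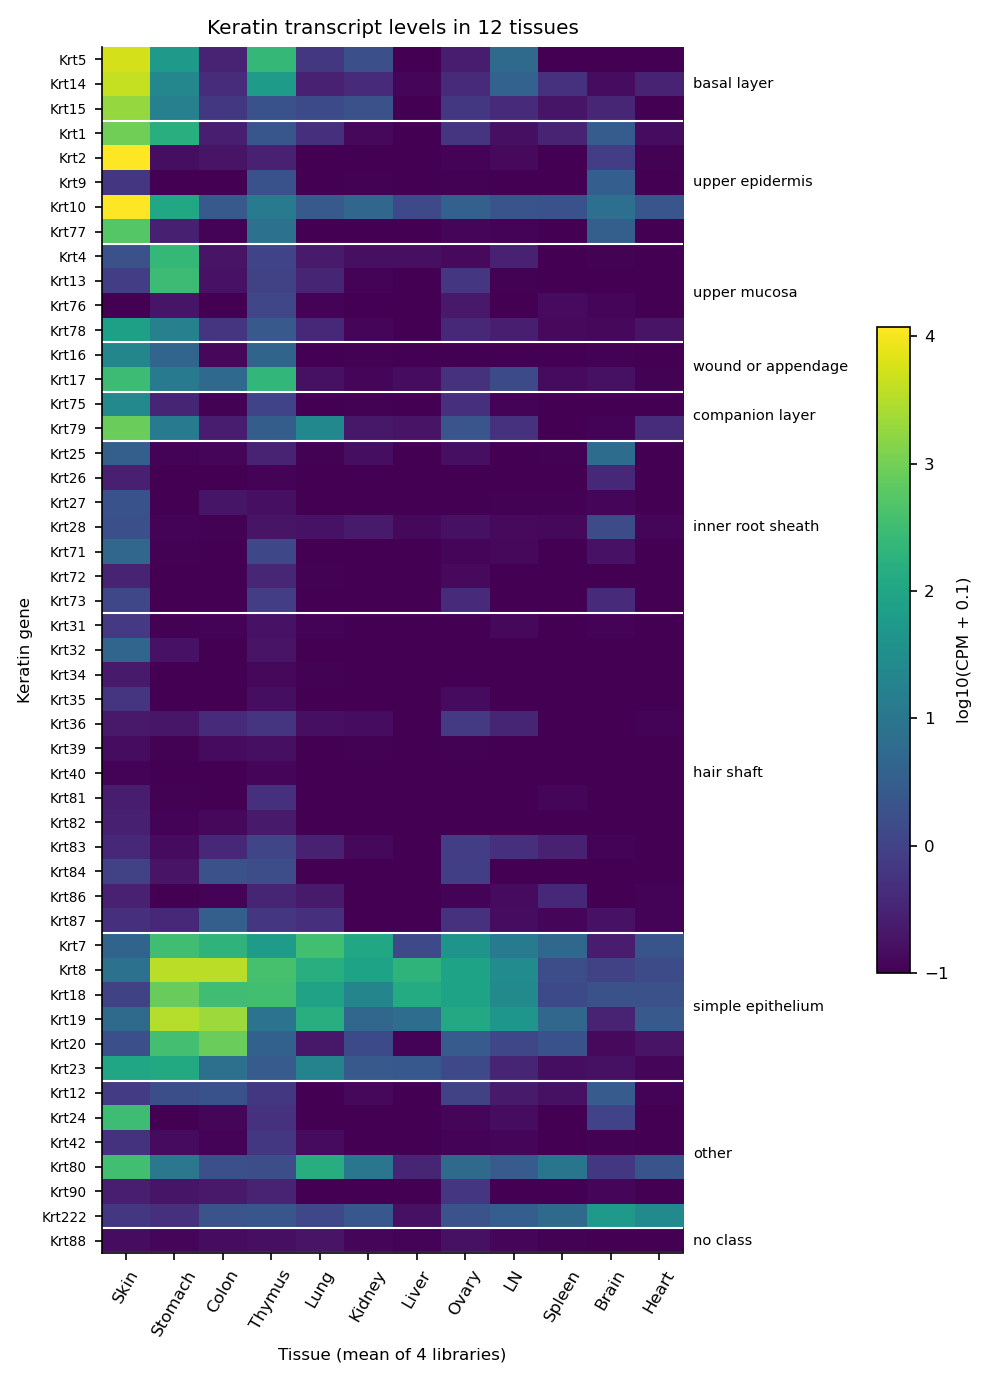
Mean level of the 49 keratin genes, as log10 of CPM + 0.1 over 4 libraries, with genes as rows grouped by class and the 12 tissues as columns. Basal and upper epidermis genes are brightest in Skin, simple epithelium genes in Stomach and Colon, and hair shaft genes are dark in nearly every tissue.

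Keratins of the upper epidermis led in Skin. Krt2, a type II keratin of the granular layer, had 9936, 11353, 12470.1 and 13613 CPM in the 4 Skin libraries, against at most 2.67 CPM in any Brain library, Brain being the next highest tissue. Krt10, its type I counterpart in differentiated cells, had 9628, 11487, 12579 and 12760.5 CPM. Skin 1 was the lowest library for both, and no library of another tissue came near. Krt1 had 611, 994, 1251 and 915 CPM in Skin, against 398, 44, 96.6 and 85.5 CPM in Stomach. Krt77, a keratin of eccrine sweat gland ducts and mouse epidermis, had 258, 710.1, 626 and 533 CPM in Skin, again lowest in Skin 1. Per kilobase of exon, which allows levels of different genes to be set beside each other, Krt10 was highest in Skin at 5494 ± 680.3 CPM per kb (SD, n = 4), then Krt2 at 4532 ± 601 and Krt5 at 2554 ± 104.

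Basal keratins came next in Skin, at a summed 11629 ± 145.8 CPM, against 24931 ± 3303 CPM for the upper epidermis class (SD, n = 4). Krt5 had 5267, 5729, 5732 and 5717 CPM in Skin, against 217, 239, 245 and 249 CPM in Thymus, its next tissue. Krt14 had 4316, 3925, 4438 and 4054 CPM in Skin, against 63.6, 49.1, 72.7 and 56.8 CPM in Thymus. Krt15, a basal keratin also of the hair follicle bulge, had 1971, 1811, 1615 and 1939.6 CPM in Skin and at most 22.1 CPM in Stomach. No Skin library overlapped any other tissue for these 3 genes. Over the next tissue the log2 differences were 4.66 for Krt5 (adjusted p = 6.38e-04), 6.22 for Krt14 (adjusted p = 3.24e-08) and 6.13 for Krt15 (adjusted p = 1.24e-07) in edgeR.

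Of the hair follicle members, the 2 grouped here as companion genes were steady in Skin and the inner root sheath genes were uneven. Krt79 and Krt75, the members of that group, had 794 to 863 CPM and 23.5 to 26.7 CPM. Krt79 made nearly all of the group's level, which should not be read as the level of the companion layer. The inner root sheath keratin Krt71 had 14.5 CPM in Skin 1 and 1.06, 1.39 and 1.30 CPM in the other Skin libraries. Krt25 had 9.85 CPM in Skin 1 against 1.13 to 1.19 CPM in the others, and Krt27 had 4.89 CPM against 0.666 to 0.821 CPM. Skin 1 alone was high for these genes. The hair shaft class summed to 5.40 to 13 CPM in Skin, with Krt32 the most abundant of those highest in Skin at 3.30 to 5.49 CPM. Hair shaft and other closely related members (Krt81, Krt83 and Krt86; Krt31 and Krt34) have similar sequences, and how reads with several matches were counted is not given in the sources used here, so their split is uncertain.

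Krt17 and Krt16, induced in activated keratinocytes, separated from each other in their next tissue. Krt17 had 258, 318.3, 312.8 and 322.8 CPM in Skin, against 238, 194, 253.5 and 219 CPM in Thymus. Skin 1 lay just above the highest Thymus library, and edgeR did not separate the tissues (log2 difference 0.55, adjusted p = 0.385). Krt16 had 13.6, 20, 35.9 and 16.6 CPM in Skin, against 9.02, 2.73, 3.65 and 2.41 CPM in Stomach. Krt80, a type II keratin of many epithelia, had 251, 394, 398 and 355 CPM in Skin, against 116, 147, 146 and 161 CPM in Lung (log2 difference 1.21, edgeR adjusted p = 0.00435). Krt24 had 277 to 348.1 CPM in Skin and at most 1.42 CPM in Brain, the next tissue (edgeR, adjusted p = 8.87e-17).

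The simple epithelium keratins led in Stomach and Colon. Krt8 had 3965, 4018, 3149 and 3042 CPM in Colon, against 1765, 3755, 5663 and 2804 CPM in Stomach. The Colon libraries lay inside the Stomach range, and the log2 difference of -0.42 (SE 0.68) was not called (edgeR, adjusted p = 0.675). Standard errors here are approximate, the log2 fold divided by the square root of the F statistic. Krt19, which pairs with Krt8 or Krt7 in many ducts and glands, had 2478, 2489, 1919.7 and 1850.2 CPM in Colon, against 1552, 3654, 5283 and 2620.3 CPM in Stomach. Krt20, a keratin of differentiated intestinal and gastric surface cells, had 1034, 864, 558 and 764 CPM in Colon, against 111, 312.4, 734 and 308.6 CPM in Stomach. Their ranges overlapped for Krt20 and for Krt19, and neither tissue was separated from the other (adjusted p = 0.155 and 0.389).

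Krt18 and the mucosal keratins were separated in Stomach. Krt18 had 453, 873, 1163 and 642 CPM in Stomach, against 408, 339.5, 384 and 270.1 CPM in Thymus, its next tissue (log2 difference 1.96, edgeR adjusted p = 0.0261). Krt13 had 256, 196, 407 and 359 CPM and Krt4 183, 132, 323.2 and 303.1 CPM in Stomach, where the mouse has a stratified forestomach. No other tissue library held more than 2.48 CPM of Krt4 or 1.62 CPM of Krt13. In Stomach the simple keratins Krt8, Krt18, Krt19, Krt20 and Krt7 were all lowest in Stomach 1 and highest in Stomach 3. Stomach 1 was also lowest in the gland genes, with a summed marker level of 56698 CPM against 75070 to 101147 CPM, and Stomach 3 held pancreas markers at 9115 CPM against 80.1 to 364 CPM. Their part in the keratin levels was not tested.

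Thymus showed the widest set of members. It had 42 to 48 of the 49 members over 3 counts, against 41 to 47 in Skin and 16 to 25 in Brain, at different depths. Krt8 had 434, 418, 405 and 322.4 CPM, Krt18 408, 339.5, 384 and 270.1 CPM and Krt5 217, 239, 245 and 249 CPM in Thymus. Krt8 and Krt18 are known in cortical and Krt5 and Krt14 in medullary thymic epithelium, so a single tissue held both the simple and the basal pair. Markers of thymic epithelium were present in the same libraries, Foxn1 at 28.7 to 49 CPM and Aire at 58.3 to 67.5 CPM. The 5 members highest in Thymus were low, Krt76 at 1.12 and Krt83 at 1.03 mean CPM and Krt42, Krt81 and Krt72 under 1 mean CPM. Only Krt76 was separated there from its next tissue (log2 3.21 over Ovary, edgeR adjusted p = 1.13e-06).

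Lung, Kidney, Liver, Ovary and LN held the simple set at lower levels. Krt7, a type II keratin of ducts and lining epithelia, had 296, 371, 341.96 and 374 CPM in Lung, against 80.7, 330.8, 676 and 203 CPM in Stomach. These ranges overlapped and the difference was not called (log2 -0.43, edgeR adjusted p = 0.585). In Liver, Krt8 (149, 191, 219 and 229 CPM) and Krt18 (113, 128, 136 and 149 CPM) with Krt19 (0.768, 1.59, 19.8 and 2.96 CPM) made 98.4% of the keratin level. In Kidney, Krt7 with 77.6 to 133 CPM and Krt8 with 64.6 to 114 CPM led, and Krt18 was lower at 8.84 to 31.1 CPM. Krt19 was the leading member of Ovary (145, 135, 157 and 16.5 CPM) and LN, in both cases with the uneven libraries named above. Krt36 and Krt90 were highest in Ovary at 0.642 and 0.549 mean CPM, and without 7 tissue libraries that stand apart (LN 2 and 3, Ovary 1 to 3, Heart 2 and 3; chosen after the data were seen) Krt36 lost its call. That fit leaves Ovary 4 as the lone Ovary library, assumed to vary like the other tissues. With any 1 Ovary library left out, Krt36 kept its call against the mean of the other tissues (log2 2.80 to 4.08).

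Brain and Heart shared Krt222, a gene named as a keratin. Krt222 lies on chromosome 11 from 99232761 to 99244085, close before the cluster span given above, which was set without this gene. It had 57.8, 55.1, 52.2 and 56.5 CPM in Brain, against 27.6, 25.5, 27.4 and 25.2 CPM in Heart. The libraries did not overlap by CPM, yet the fitted log2 difference of 0.32 was not called (edgeR, adjusted p = 0.496). The inner root sheath gene Krt25 was highest in Brain with 5.98, 4.29, 4.58 and 9.68 CPM, which overlapped Skin through Skin 1. Krt9 had 0.451, 5.09, 7.06 and 0.0373 CPM in Brain and Krt12 had 0.154, 3.54, 7.23 and 0.0373 CPM. Both rested on Brain 2 and Brain 3, and Krt77 followed the same 2 libraries with 5.30 and 7.14 CPM against 0.708 and 0.0994 CPM in Brain 1 and Brain 4.

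Set against Stomach, Skin had more of the stratified and follicle keratins and less of the simple ones. Of the members tested, 31 were higher in Skin, against 29.2% of all tested genes, and 9 were lower, against 29.7%. Krt24, Krt26, Krt27, Krt35, Krt72 and Krt73 had 0 counts in Stomach and passed the filter through other tissues. A higher call in Skin was largely fixed for such members, so their part in this count and in the class medians says little. The 5 upper epidermis, 3 basal, 7 inner root sheath, 2 activated and 2 companion members were all higher, with class medians between 2.80 and 7.34 on the log2 scale. Of these, Krt26 rested on Skin 1, with 56 counts there and 0 in the other Skin libraries, and without Skin 1 its log2 difference was -0.0317 (edgeR, adjusted p = 1). Krt16 lost its call without Skin 3 (edgeR, adjusted p = 0.0542). Among the hair shaft members called higher, Krt81, Krt82, Krt83 and Krt86 lost their calls without Skin 1 (edgeR, adjusted p = 0.403, 0.0939, 0.399 and 0.0567). Of 6 simple members 5 were lower, with a class median of -9.02, and Krt23 was not called. Of 4 mucosal members Krt4, Krt13 and Krt76 were lower and Krt78 was higher. Krt18 had 0.366, 2.89, 0.312 and 0.126 CPM in Skin, against 453 to 1163 CPM in Stomach, a log2 difference of -10.67 (SE 1.17; edgeR, adjusted p = 4.17e-10). Krt24 had no count in Stomach, so its pooled level was at least 37436-fold higher in Skin, against a floor of 3 counts over the 4 Stomach libraries. Such floors and the intervals below cover counting error alone.

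Genes that anchor or surround keratin filaments moved with the members in that comparison. Of 13 desmosome genes 10 were higher and 3 lower in Skin than in Stomach, with a median log2 difference of 2.71. Dsg1a, a desmoglein of upper epidermis, rose by 10.58 (SE 0.41) and Dsc3, a basal desmocollin, by 7.61 (SE 0.46). The desmosome genes of simple epithelia fell, Dsc2 by 5.36 (SE 0.37) and Dsg2 by 2.34 (SE 0.23), to 5.7 to 7.9 CPM and 41.2 to 47.3 CPM in Skin. Of 11 cornified envelope genes 9 were higher and 2 lower, and Lor, which encodes a main envelope protein, had 1248 to 2674 CPM in Skin against 49 to 118 CPM in Stomach. Trp63, the regulator of stratified epithelium, had 312.9 to 370.2 CPM in Skin against 1.2 to 10.8 CPM in Stomach. All of these were called by edgeR (largest adjusted p among those named 4.20e-11).

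Set against Stomach, Colon had less of the keratins of stratified epithelium. Of the members tested, 6 were higher in Colon, against 20.3% of all tested genes, and 18 were lower, against 19.7%. All 4 mucosal, 3 basal, 2 activated and 2 companion members were lower, as were 3 of the 5 upper epidermis members. Of the lower calls, Krt17 and Krt32 were lost under DESeq2 (adjusted p = 0.0773 and 0.134). Krt42 lost its call without Colon 1, 2 or 3 or Stomach 1 or 2 (edgeR, adjusted p = 0.0569 to 0.177). Krt13 fell by 12.47 (SE 0.72) and Krt4 by 11.83 (SE 0.56) on the log2 scale (edgeR, adjusted p = 1.11e-13 and 1.78e-17). Of the 6 simple members 1 was called, Krt23, which had 6.24 to 9.65 CPM in Colon against 112 to 138 CPM in Stomach. Hair shaft genes gave 3 of the 6 higher calls, Krt87, Krt84 and Krt83. Krt87 had 3.85, 3.25, 2.63 and 3.61 CPM and Krt84 1.88, 1.86, 1.26 and 1.96 CPM in Colon. Krt83 rested on Colon 3, with 69 counts against 14, 2 and 10, and lost its call without it (edgeR, adjusted p = 0.396). The higher call of Krt24 was lost without Colon 3, Colon 4 or Stomach 4 (edgeR, adjusted p = 0.0566, 0.0506 and 0.0551). Krt24 and Krt27 had 0 counts in Stomach, so their higher calls say little. Krt18 had 350.0, 412, 298 and 278 CPM in Colon, below all Stomach libraries, and was not called (log2 -1.67, SE 0.78, adjusted p = 0.0885). Skin and Colon were both set against the same Stomach libraries.

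Within the 49 members, type I and type II levels were near balance per length in several epithelial tissues. The sums leave out Krt6a and Krt6b on chromosome 15 and Krt33a and Krt33b on chromosome 11. Balance over all keratins of these tissues was therefore not tested. The summed type I level over the summed type II level, each per kilobase of exon, averaged 1.21 in Skin, 1.41 in Stomach, 0.997 in Colon, 1.36 in Thymus, 1.03 in Lung and 0.972 in Liver. It was 0.35 in Kidney, 2.17 in Ovary and 2.44 in LN, and in Brain and Heart, where Krt222 leads, it was 14.5 and 11.9. Krt222 counts as type I only by its chromosome, so these last 2 ratios rest on that choice. The exon unions of Krt7, Krt80 and Krt1 are long (7049, 6393 and 4415 bases), so coding length was used as an alternative chosen after the data were seen. By coding length the ratio was 0.471 in Lung, 0.196 in Kidney, 1.05 in Colon, 1.08 in Skin, 1.40 in Stomach and 1.12 in Thymus. The balance in Lung therefore rests on the length used.

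**Figure D2:**
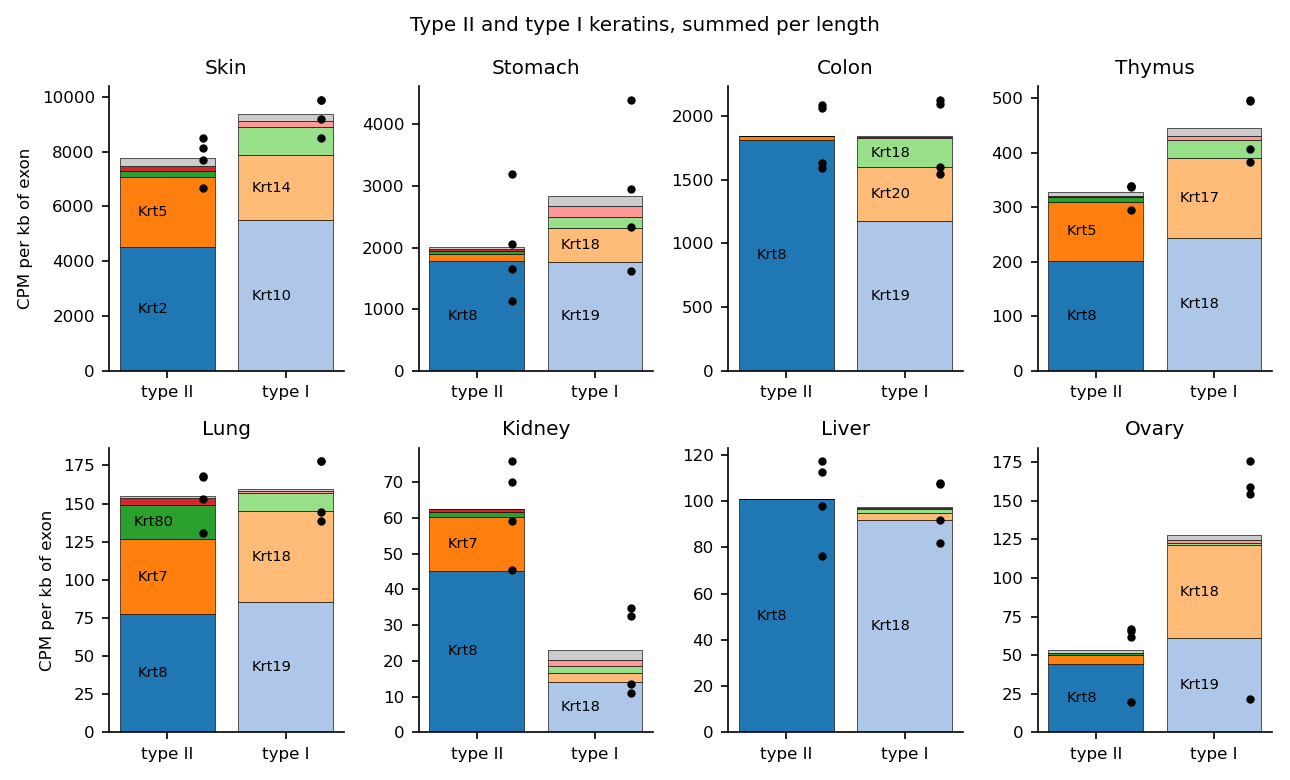
Summed level of type II members (left bar of each pair) and type I members (right bar) in CPM per kilobase of exon for 8 tissues, as stacked means over 4 libraries, with points for the sums of single libraries. Skin and Colon pairs are of similar height, while Kidney has more type II than type I.

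Within the known pairs the balance differed by tissue. Krt8 over Krt18 per kilobase had a median of 7.90 in Colon (7.16 to 8.31 over libraries), 4.03 in Kidney, 3.18 in Stomach, 1.34 in Lung, 1.11 in Liver and 0.828 in Thymus. In Colon and Stomach the other type I simple keratins Krt19 and Krt20 were abundant, at 1178 and 418 CPM per kb in Colon and 1767 and 190.2 CPM per kb in Stomach. Krt5 over Krt14 had a median of 1.08 in Skin and 3.12 in Thymus. Krt1 over Krt10 had a median of 0.0379 in Skin, where the type II gene Krt2 was high, and 0.991 in Stomach. Krt4 over Krt13 had a median of 0.645 in Stomach. Over the mean CPM of 12 tissues, Spearman's correlation was 0.88 for Krt8 with Krt18, 0.80 for Krt5 with Krt14, 0.78 for Krt1 with Krt10 and 0.82 for Krt4 with Krt13, given as a description since the genes share libraries. By the same measure the type I gene most like Krt5 was Krt15 (0.90), and the one most like Krt8 was Krt18.

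In culture the keratin set was small. Only 11 members passed the filter in those 45 tumour libraries, and 15 of the 49 exceeded 1 CPM in any cultured library. Krt8 had 557, 643 and 986 CPM in MCA101OVA Setdb1KO, 655, 926 and 766 CPM in MCA101OVA Ctrl and 814, 940 and 811 CPM in MCA101OVA WT. Krt18 had 297, 303.9 and 758 CPM in Setdb1KO, 321.1, 395 and 536 CPM in Ctrl and 391.6, 431 and 625 CPM in WT of that line. This line derives from a fibrosarcoma, and its epithelial markers Epcam, Esrp1 and others summed to at most 0.17 CPM in the WT libraries. In the B16 and B16OVA libraries of every group Krt8 and Krt18 were at 0.47 CPM or less, other than B16OVA WT 6 (1.94 and 2.36 CPM) and B16OVA Ctrl 2 (1.86 and 1.57 CPM).

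**Figure D3:**
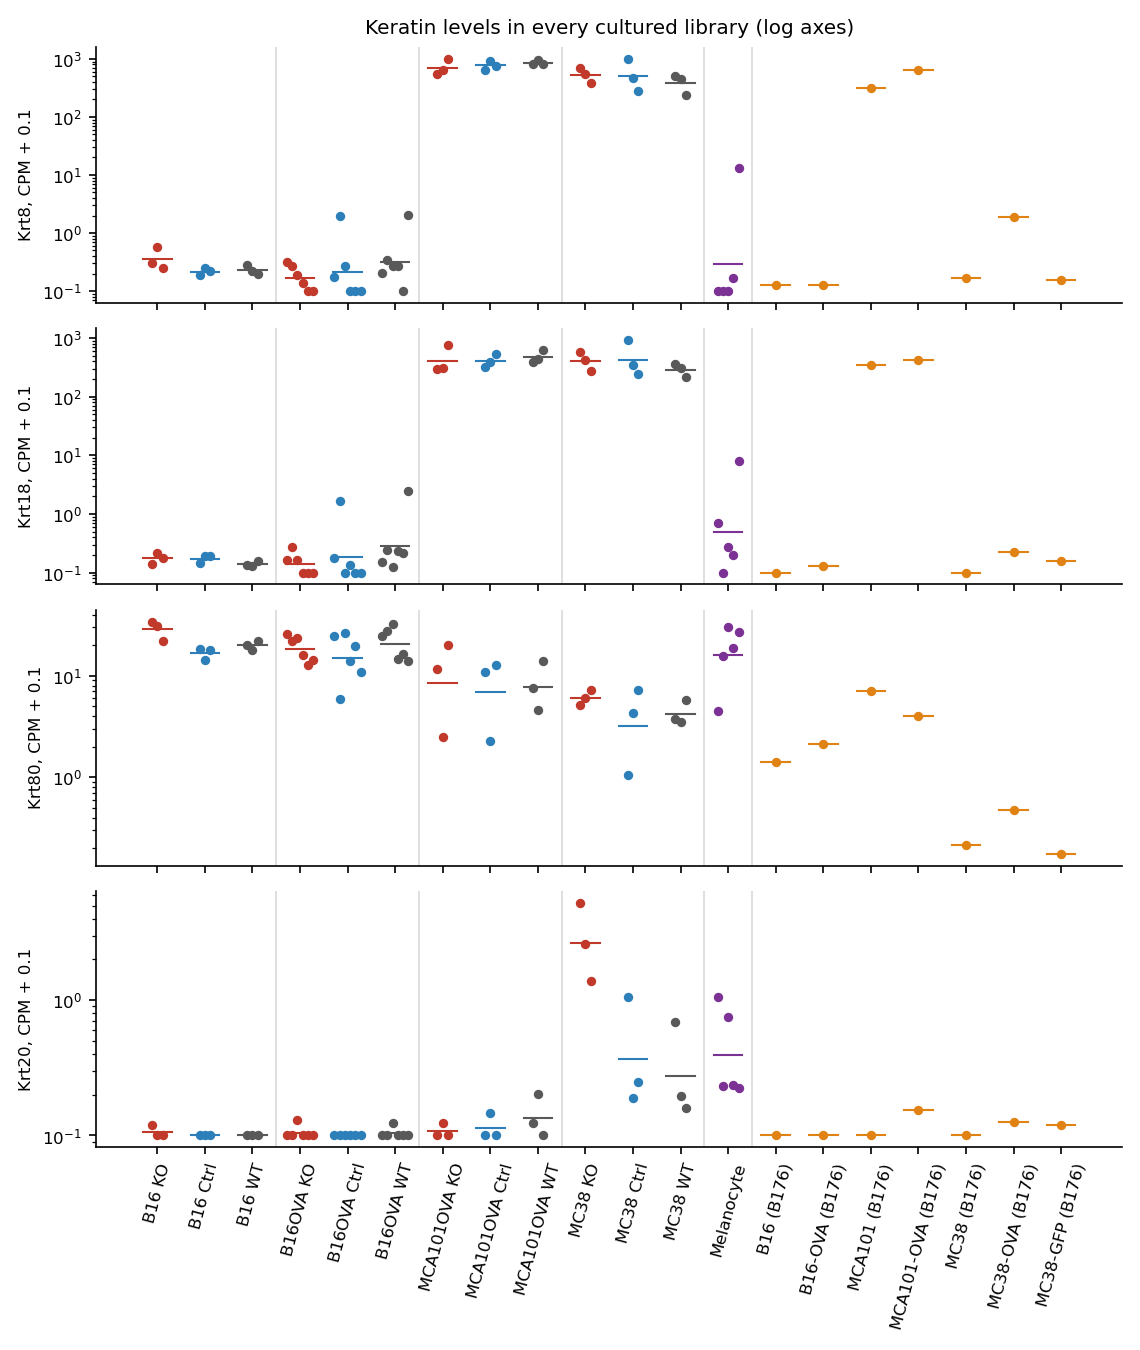
Levels of Krt8, Krt18, Krt80 and Krt20 in every cultured library as CPM + 0.1 on log axes, with KO in red, Ctrl in blue, WT in grey, melanocytes in purple and prefix B176 in orange; short lines are geometric means. Krt8 and Krt18 separate MCA101OVA and the libraries labelled MC38 from B16, B16OVA and melanocytes, and the KO points of Krt20 lie above the Ctrl points in the libraries labelled MC38.

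WT cultures and melanocytes were tested where libraries share prefixes, and these contrasts share samples. The pooled ratios below also take in libraries of other prefixes. For MC38 WT (as labelled) minus Melanocyte, 3 members were higher, against 18.7% of all tested genes, and 4 were lower, against 30.7%. For B16OVA WT minus Melanocyte 1 was higher (17%) and 3 were lower (21.7%). For MC38 WT minus B16OVA WT 6 were higher (12.8%) and 2 lower (20.9%), and for MCA101OVA WT minus B16OVA WT 3 were higher (16.8%) and 2 lower (19.1%). The filter passed 11 members in the first 3 comparisons and 5 in the last, where all 5 were called. In that last fit Krt8, Krt18 and Krt10 had few or 0 counts in B16 and B16OVA WT. Krt87 had 0 in MCA101OVA WT, and Krt13, tested in the first 3, had 0 in B16OVA WT. A member that passed through 1 group where it is high had to differ, so such calls and counts say little.

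Krt8 and Krt18 were the largest of these differences by level. Krt8 had 511, 458 and 242 CPM and Krt18 358, 311.7 and 212 CPM in MC38 WT as labelled. B16OVA WT 4, 5 and 6, of the same prefix, held 0.165, 0 and 1.94 CPM of Krt8, and the melanocyte cultures held 0, 0, 0, 0.0685 and 13.3 CPM. No library of MC38 WT as labelled overlapped either group. Krt8 was higher in MC38 WT than in melanocytes by 7.23 (SE 1.88) on the log2 scale and than in B16OVA WT by 9.09 (SE 2.58; edgeR, adjusted p = 0.00758 and 0.0177). Without Melanocyte 5 the first difference was 14.01, and the second lost its call without B16OVA WT 4 or 5 (adjusted p = 0.0624 and 0.0516). In MCA101OVA WT Krt8 was higher than in B16OVA WT by 12.41 (SE 0.42) and Krt18 by 12.91 (SE 0.52; edgeR, adjusted p = 2.37e-07 and 5.63e-07). Pooled over libraries, the Krt8 level of MCA101OVA WT was 1941 times that of all 6 B16OVA WT libraries (95% exact interval 1564 to 2441). This ratio spans prefixes, since B16OVA WT 4, 5 and 6 share no prefix with MCA101OVA WT. Of the 82 Krt8 counts in B16OVA WT 61 came from B16OVA WT 6, and without it the ratio was 6314 (4130.2 to 10200), a comparison chosen after the data were seen.

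Krt13, the mucosal type I keratin, had 8.15, 3.93 and 1.28 CPM in MC38 WT as labelled, against 0 in all 6 B16OVA WT libraries. It was called higher there than in B16OVA WT and melanocytes (edgeR, adjusted p = 0.00103 and 3.95e-04). Pooled it was at least 279-fold higher than in B16OVA WT, against 3 counts over all 6 libraries of that group, some of other prefixes. Krt10 had 0 counts in every B16 and B16OVA library tested, against 1.41, 2.35, 2.42, 1.78 and 1.86 CPM in melanocytes. It stood at 0.953, 1.13 and 1.15 CPM in MCA101OVA WT and at 0.591, 0.974 and 0.555 CPM in MC38 WT as labelled. All groups were called higher than B16OVA WT for Krt10 (edgeR, adjusted p = 5.94e-05, 0.00152 and 1.36e-04 for melanocytes, MCA101OVA and MC38). Krt10 and Krt13 passed the filter only through groups that hold them, so their calls over B16OVA WT say little. Krt16 and Krt20 were also called higher in MC38 WT than in B16OVA WT (adjusted p = 0.0421 and 0.0442), from 0.0876 to 1.00 CPM and 0.0584 to 0.591 CPM. Both calls were lost when any 1 library of these groups other than MC38 WT 3 was left out (adjusted p = 0.0760 to 0.115 for Krt16 and 0.0510 to 0.149 for Krt20), and Krt16 also under DESeq2 (adjusted p = 0.0522).

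Krt80 and Krt87 ran the other way. Krt87, a hair shaft type II gene, had 1.19, 2.06 and 1.21 CPM in B16OVA WT 4 to 6, against 0.0503, 0.196, 0.0863, 0.171 and 0.0413 CPM in melanocytes (log2 3.86, SE 0.58, edgeR adjusted p = 4.81e-04). The B16OVA WT libraries lay above all melanocyte libraries, and the 3 MCA101OVA WT libraries had 0 counts. Krt80 had 3.69, 3.39 and 5.66 CPM in MC38 WT as labelled, against 14.6, 16.1 and 13.7 CPM in B16OVA WT 4 to 6 and 4.43, 15.5, 30.0, 18.4 and 26.6 CPM in melanocytes. It was lower in MC38 WT than in B16OVA WT by a log2 difference of -1.97 (SE 0.56, edgeR adjusted p = 0.0174), and the call was lost without B16OVA WT 5, MC38 WT 1 or MC38 WT 2 (adjusted p = 0.0538, 0.0726 and 0.0779). Krt80 was also called lower in MC38 WT than in melanocytes (log2 -2.17, SE 0.53, edgeR adjusted p = 0.00533). MC38 WT overlapped the melanocytes through Melanocyte 1, the culture high in fibroblast markers. In MCA101OVA WT Krt80 was called lower than in B16OVA WT (log2 -1.62, edgeR adjusted p = 0.0114), a call lost without MCA101OVA WT 1 (adjusted p = 0.0540). Under prefix B176 Krt80 was at 1.31 and 2.02 CPM in B16 and B16-OVA, against 13.7 to 32.0 CPM in the other B16 and B16OVA WT libraries.

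Melanocyte 5 set several melanocyte levels. It held 32.7 CPM of Krt14, 25.4 CPM of Krt17, 13.3 CPM of Krt8 and 5.66 CPM of Krt7, against at most 2.22, 0.352, 0.0685 and 0.201 CPM in the other 4. Its keratinocyte markers summed to 55.8 CPM, against 6.5 to 25.3 CPM in the others, with Dsg3 at 2.07 CPM and Trp63 at 0.12 CPM, and its melanocyte markers summed to 45674 CPM, below Melanocyte 2, 3 and 4 (49171 to 65713 CPM) and above Melanocyte 1 (12419 CPM). Their part in the keratin levels was not tested. Krt8 in B16OVA WT minus Melanocyte was not called with all libraries, and without Melanocyte 5 it was called higher in B16OVA WT (log2 4.92, edgeR adjusted p = 0.0175). Krt19 had 0 CPM in B16OVA WT 4 to 6 and 0.0295, 0 and 0 CPM in MC38 WT as labelled, against 4.43, 2.61, 4.23, 1.40 and 0.289 CPM in melanocytes, lowest in Melanocyte 5. It was lower in both tumour groups (edgeR, adjusted p = 0.00162 in B16OVA WT and 0.00122 in MC38 WT as labelled).

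**Figure D4:**
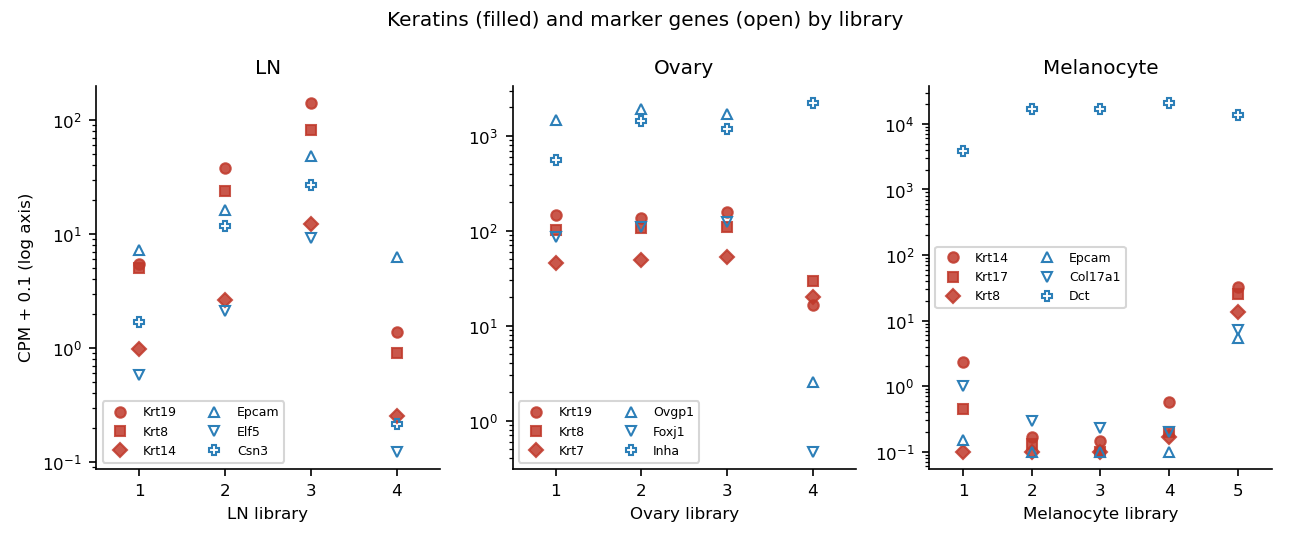
Levels of keratins (filled points) beside marker genes (open points) in single LN, Ovary and Melanocyte libraries, in CPM + 0.1 on a log axis. The open points include markers of the sampled cells themselves, such as Dct in melanocytes. Keratins and Epcam are highest together in LN 3 and Melanocyte 5, and Ovary 4 is low in the keratins and in Ovgp1.

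The knockout was read from the Setdb1 transcript. Setdb1 had 11.66 to 20.6 CPM in B16 Setdb1KO against 59.5 to 65.1 CPM in Ctrl, 15.6 to 49.9 CPM in B16OVA KO against 21.1 to 99.4 CPM in Ctrl, and 20.4 to 36.7 CPM in MCA101OVA KO against 45.7 to 95.7 CPM in Ctrl. It was called lower in these 3 lines (edgeR, adjusted p = 9.80e-05, 2.17e-04 and 0.00749). In the libraries labelled MC38 it had 60.05 to 85.3 CPM in KO against 54.9 to 124.9 CPM in Ctrl and was not called (log2 -0.52, SE 0.28), so the gene count there does not mark the KO libraries.

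No keratin gene was called between Setdb1KO and Ctrl with the low-count filter. The edgeR count was 0 of 11 tested members in B16 (0.69% of all tested genes), B16OVA (1.05%), MCA101OVA (0.345%) and the libraries labelled MC38 (0.464%), and DESeq2 also gave 0 in each. At an unadjusted p under 0.05 the counts were 0, 0, 0 and 1. Without the filter edgeR called Krt8 and Krt18 lower in B16OVA KO (adjusted p = 0.0256 and 0.0133) and Krt20 higher in MC38 KO as labelled (adjusted p = 0.0227). B16OVA Ctrl 2 held 32 counts of Krt8 and 27 of Krt18, against at most 3 and 2 counts in the other Ctrl libraries, and with the filter but without that library the log2 differences were 1.14 and 1.32 (adjusted p = 1 for both). No member was called between Ctrl and WT in any line, where 0% of all genes were, and 0 members differed in KO effect from B16OVA in B16 (0% of genes), MCA101OVA (0.101%) and MC38 (0.262%). With these few libraries a missed threshold does not show that levels were alike. Of the lists for desmosome, hemidesmosome, cornified envelope, regulator and other intermediate filament genes, 0 tested genes were called in any KO comparison.

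The 1 member under an unadjusted p of 0.05 was Krt20 in the libraries labelled MC38. It had 5.12, 2.5 and 1.28 CPM in Setdb1KO, against 0.952, 0.0904 and 0.150 CPM in Ctrl and 0.591, 0.0943 and 0.0584 CPM in WT. Every KO library lay above every Ctrl and WT library. The log2 difference between KO and Ctrl was 2.81 (SE 0.90), with an adjusted p of 0.439 in edgeR, or 0.0227 without the low-count filter. In the other lines Krt20 stayed at or under 0.102 CPM. Krt80 in B16, singled out after its values were seen, had 34.0, 30.7 and 22 CPM in KO, against 18.2, 14.2 and 18 CPM in Ctrl and 20, 18 and 21.7 CPM in WT. Its log2 difference of 0.82 (SE 0.52) was not called (edgeR, adjusted p = 1). In B16OVA Krt80 had 12.8 to 25.4 CPM in KO and 5.75 to 26.5 CPM in Ctrl, which overlapped.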

How the data were processed

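Poly(A) RNA libraries (a stranded mRNA kit, per the labels) were deposited by the authors as raw whole-number counts per gene. The submitters' processing notes name Trim Galore, FastQC, STAR, HTSeq and mm10. The sources used here do not give versions, annotation, strand setting or the treatment of reads with several matches. Cultures and tissues were extracted differently, per the labels' protocols, and were not tested against each other. The authors' second table of counts scaled by library was not used here. Of 53379 gene IDs, 53274 matched GENCODE vM21, which gave symbols and exon lengths.

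CPM are counts per 1e6 library counts. Tests used edgeR 4.0.16 in R 4.3.3 (TMM, filterByExpr by group, quasi-likelihood, Benjamini-Hochberg over all tested genes, called at an adjusted p under 0.05), with the prefix of the library names as a term, in 4 fits: 48 tissue libraries (26242 genes), 45 tumour libraries (16809), 11 of prefix D176 (16020) and 9 of prefixes B253 and B262 (14699). What the prefix marks is not in the labels. Libraries of prefix B176 entered no fit. The fits were checked on simulated data. Within groups 154 pairs of libraries were compared and 0 were identical or within sampling noise. Library sets by number paired in B16, B16OVA and MCA101OVA (9 of 9 correlations of deviations over 0.1 in each, lowest 0.342, 0.327 and 0.307, a hint from the data) and not in tissues (59 of 264).

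Alternatives were RLE size factors, no filter, DESeq2 1.42.0, no prefix term, a replicate block, another fold minimum, 1 line alone and each library left out. Named were the 3 highest members per length and the members highest in each tissue, the known pairs, and called members in cultures, though some of their calls are not printed. The members and lists were chosen with earlier results of these data known.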

Additional observations from a re-analysis of the deposited data

Results flagged for a closer look

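Within groups of 4 to 10 libraries, 12 of 81 keratin levels tried had 1 library far from the rest. The cut-off flags about 1 in 20 by chance only for normal values tried independently. Several genes were flagged in the same library, so 12 cannot be called an excess. Stomach 1 was high with 398 CPM of Krt1 and 320.3 CPM of Krt10, against 44 to 96.6 and 22 to 41.1 CPM in the other Stomach libraries. Melanocyte 5 was high with 32.7 CPM of Krt14, 7.85 CPM of Krt18 and 13.3 CPM of Krt8. The other melanocyte cultures held at most 2.22, 0.604 and 0.0685 CPM of these genes.

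Skin 1 was high with 14.5 CPM of Krt71 and 4.89 CPM of Krt27. It was low with 258 CPM of Krt17 and 5267 CPM of Krt5, against 312.8 to 322.8 and 5717 to 5732 CPM in the other Skin libraries. Ovary 4 was low with 13 CPM of Krt18 and 29.1 CPM of Krt8, against 103 to 122 and 101 to 109.6 CPM in the other Ovary libraries. Colon 3 was low with 1.26 CPM of Krt84, against 1.86 to 1.96 CPM.

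Libraries of prefix B176, which entered no test, also held keratin counts. MCA101-OVA had 631 CPM of Krt8 and 412 CPM of Krt18, MCA101 had 311.9 and 350.3 CPM, and MC38-OVA had 1.77 and 0.125 CPM.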

How the results depend on the processing

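With each library left out in turn, the 45 members highest in 1 tissue stayed at 45. The tissue with the highest mean CPM was kept from all libraries, so only the adjusted p and the fold could change. Whether another tissue then had the highest mean was not tested. Skin minus Stomach gave 26 to 31 higher and 8 or 9 lower, and Colon minus Stomach gave 4 to 7 higher and 17 or 18 lower. Against the next highest tissue 17 members were counted, with no share of all genes to set beside them. In the cultures, leaving out 1 library gave 1 to 2 members higher in B16OVA WT than in melanocytes (2 without Melanocyte 5), 2 to 4 lower in MC38 WT than in melanocytes (2 without MC38 WT 1 or 3) and 1 to 2 lower (without B16OVA WT 5, MC38 WT 1 or 2) and 4 to 7 higher in MC38 WT than in B16OVA WT. MCA101OVA WT minus B16OVA WT gave 3 to 6 higher (5 without B16OVA WT 1, 2 or 3, and 6 without MCA101OVA WT 1) and 1 to 2 lower (1 without MCA101OVA WT 1). Krt8 in B16OVA WT minus melanocytes ran from -4.74 without B16OVA WT 6 to 4.92 without Melanocyte 5 (log2, main value -1.85), and Krt26 in Skin minus Stomach from -0.0317 without Skin 1 to 7.37 without Skin 4 (main value 6.77).

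With no low-count filter, where more genes are tested, 2 members were called in B16OVA KO (Krt8 and Krt18, lower, a direction that with the filter turned to 1.14 and 1.32 on the log2 scale without B16OVA Ctrl 2), 1 in MC38 KO (Krt20, higher, edgeR adjusted p = 0.0227) and 1 differed in KO effect between B16 and B16OVA (Krt8). The same setting gave 6 lower in B16OVA WT and 5 higher in MC38 WT than in melanocytes, and 8 higher in MCA101OVA WT than in B16OVA WT. The members tested and the share of all genes called in that setting are not given here, so these counts cannot be called many or few. Why the setting changed the counts was not tested. The library set as a replicate block kept 0 calls in every KO and Ctrl comparison, 31 and 9 in Skin minus Stomach and 6 and 18 in Colon minus Stomach, so the pairing changed no count. All libraries labelled MC38 fall in 1 set, so the block could not be fitted separately there. Of the other alternatives, 109 counts kept within 1.5 times of the main value. Without the 7 tissue libraries that stand apart, chosen after the data were seen, Krt36 lost its call in Ovary (edgeR adjusted p = 0.193, with Ovary 4 as the lone Ovary library) and Krt18 gained one in Colon minus Stomach (adjusted p = 0.0313). RefSeq coding lengths were not run, and annotation coding lengths took their place. Levels under 1 CPM rest on few counts at these depths.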
